A study of Mus musculus with 6 samples.

Results

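The p53 pathway was described through 10 genes, found by symbol among the 15703 genes of a table of expression in newborn mouse neocortex. They are Trp53, which encodes p53 itself, and Mdm2, Cdkn1a, Ccng1, Plk2, Bax, Pmaip1, Perp, Phlda3 and Trp53inp1. All 10 were measured. Plk2 is the only kinase among them, so the stress-activated MAP kinases were examined as a list of their own.

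RNA was sequenced from whole neocortex at postnatal day 0, the day of birth, in 3 Tcf4 conditional knockout animals (cKO, genotype Tcf4 f/f; Emx1Cre/+) and 3 wild-type animals (WT), all C57BL/6. The design asks how expression changes when the transcription factor Tcf4 is lost. Emx1 drives Cre in progenitors that give rise to cortical excitatory neurons and macroglia, so interneurons, microglia and vessels keep an intact Tcf4. The labels do not say whether WT animals carried floxed alleles or Cre. Titles carry 6 different animal codes, so the libraries of a group were taken as separate animals.

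p53 is a transcription factor held at low levels by Mdm2, a ubiquitin ligase that is itself a p53 target. When DNA damage or other stress releases it, p53 induces genes that stop the cell cycle, trigger death through the mitochondria or restrain growth signals. In the developing cortex it is best known for removing damaged or mis-dividing neural progenitors. Levels are FPKM, fragments scaled to exon length and to sequencing depth, so levels of different genes can be compared per length.

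Plk2, Pmaip1, Phlda3 and Perp fell in cKO neocortex, by 1.34-fold (Plk2) to 2.29-fold (Pmaip1), while Trp53inp1 rose 1.57-fold. Trp53, Mdm2, Cdkn1a, Ccng1 and Bax did not pass the test. The test was limma on log2(FPKM + 1), adjusted across all 15703 genes after Benjamini and Hochberg, and a gene was called at an adjusted p under 0.05. Thus 1 of 10 members was called higher, where 7.22% of all genes were, and 4 of 10 were called lower, where 8.59% of all genes were. In either direction 15.8% of all genes were called. The median log2 change was −0.19 over the members and 0.0017 over all genes. The members were chosen with earlier results of these data known, so these counts describe them and test nothing about the pathway. Because whole tissue was sequenced, fewer cells of a type and less RNA per cell cannot be told apart.

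Promoter sequences, from RefSeq on build GRCm38.p6, are shown for Plk2 and Phlda3, which fell, and for Cdkn1a and Mdm2, classical p53 targets that did not pass. Each covers the 250 bases before a start site, 5′ to 3′ on the gene's strand, and capitals mark matches to the p53 half-site consensus or to the E-box CANNTG, the motif of E-proteins such as Tcf4.
Plk2, chr13:110394794-110395043, plus strand: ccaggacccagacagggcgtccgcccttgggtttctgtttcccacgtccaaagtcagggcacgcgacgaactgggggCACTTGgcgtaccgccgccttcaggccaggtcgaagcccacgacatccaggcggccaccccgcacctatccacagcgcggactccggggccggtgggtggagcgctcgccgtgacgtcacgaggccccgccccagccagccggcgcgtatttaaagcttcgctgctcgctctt
Phlda3, chr1:135765835-135766084, plus strand: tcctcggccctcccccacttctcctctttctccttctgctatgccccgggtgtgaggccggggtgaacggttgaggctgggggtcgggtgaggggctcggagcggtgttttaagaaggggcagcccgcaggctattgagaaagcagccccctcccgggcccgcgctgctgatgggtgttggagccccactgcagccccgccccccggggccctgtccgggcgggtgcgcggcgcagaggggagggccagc
Cdkn1a, upstream start, chr17:29090729-29090978, plus strand: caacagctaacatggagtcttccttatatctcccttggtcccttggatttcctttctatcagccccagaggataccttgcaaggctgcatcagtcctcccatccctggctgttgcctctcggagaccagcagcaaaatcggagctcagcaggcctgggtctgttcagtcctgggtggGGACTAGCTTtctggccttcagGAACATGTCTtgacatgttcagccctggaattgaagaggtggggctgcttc
Mdm2, chr10:117710759-117711008, minus strand: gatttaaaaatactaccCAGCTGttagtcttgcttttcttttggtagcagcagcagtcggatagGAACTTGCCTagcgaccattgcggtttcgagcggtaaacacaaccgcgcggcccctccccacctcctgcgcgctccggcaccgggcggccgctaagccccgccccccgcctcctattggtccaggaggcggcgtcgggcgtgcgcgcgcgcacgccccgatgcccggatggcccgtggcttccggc

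Both strands were searched in windows of 7 members. The p53 half-site stood in the windows of 5 of them, Trp53, Mdm2, Cdkn1a, Ccng1 and Bax, and 7.13% of all 32851 RefSeq promoter windows of this length held it. The windows of Plk2 and Phlda3 held none, and Pmaip1, Perp and Trp53inp1 were not searched. In Cdkn1a the 2 matches, GGACTAGCTT and GAACATGTCT, began 73 and 51 bases before its upstream start, and the window at its downstream start had none. The E-box CANNTG stood in windows of 4 members, Plk2, Mdm2, Bax and Cdkn1a, and in 66.2% of all windows. The CACTTG of Plk2 began 173 bases before the start and the CAGCTG of Mdm2 began 233 bases before it. No half-site overlapped an E-box. A match describes these letters and is no evidence of binding. Sequence outside these windows was not searched, so a window without a match says nothing of sites elsewhere. Whether these motifs bear on the changes of the members was not tested.

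Tcf4, the deleted gene, was read first. It stood at 56.5, 60.6 and 55.3 FPKM in cKO and 71.2, 75.6 and 75.3 FPKM in WT (limma adjusted p = 0.00411). Every cKO library was lower than every WT library, as in the labels, and the mean was 1.29-fold lower in cKO. Tcf4 transcript thus remained in cKO neocortex, and its source was not tested. Recovered reads over all matched genes were about 25.5 to 26.7 M per cKO library and 25.3 to 28.8 M per WT library (M, 1e6 reads). In every library this sum exceeded the library size fitted to recover the reads. The fitted sizes were 23.2 to 24.3 M in cKO and 23.4 to 26.1 M in WT, so the sums are only a rough measure of depth. By Xist and Y-linked genes, cKO 3 and WT 1 were male and the other 4 libraries female, so sex was balanced between groups. Projection neuron markers (8 of 8 measured, among them Neurod6) summed to 665 to 709 FPKM in cKO and 613 to 657 FPKM in WT. Within that list Emx1 and Neurod2 fell, by 1.27-fold and 1.20-fold (25% of the list, against 8.59% of all genes). In it 0 genes were called higher and the median log2 change was −0.063. The cKO animals carry Emx1Cre, and the part of that allele in the fall of Emx1 was not tested. Without cKO 2, cKO 3 or WT 1, 0 genes of the list were called lower, without cKO 1 it was 1, and without cKO 1, WT 2 or WT 3, 1 was called higher. Of the striatal list, 5 of 8 genes were measured and summed to 11.8 to 14.0 FPKM in cKO and 8.98 to 11.3 FPKM in WT. Of the choroid plexus list, 1 of 4 genes was measured, Ttr. It averaged 1.56 FPKM in cKO (0.911 to 2.548 FPKM) and 1.23 FPKM in WT (1.134 to 1.365 FPKM). The groups overlapped and Ttr did not pass (limma adjusted p = 0.625).

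**Figure D1:**
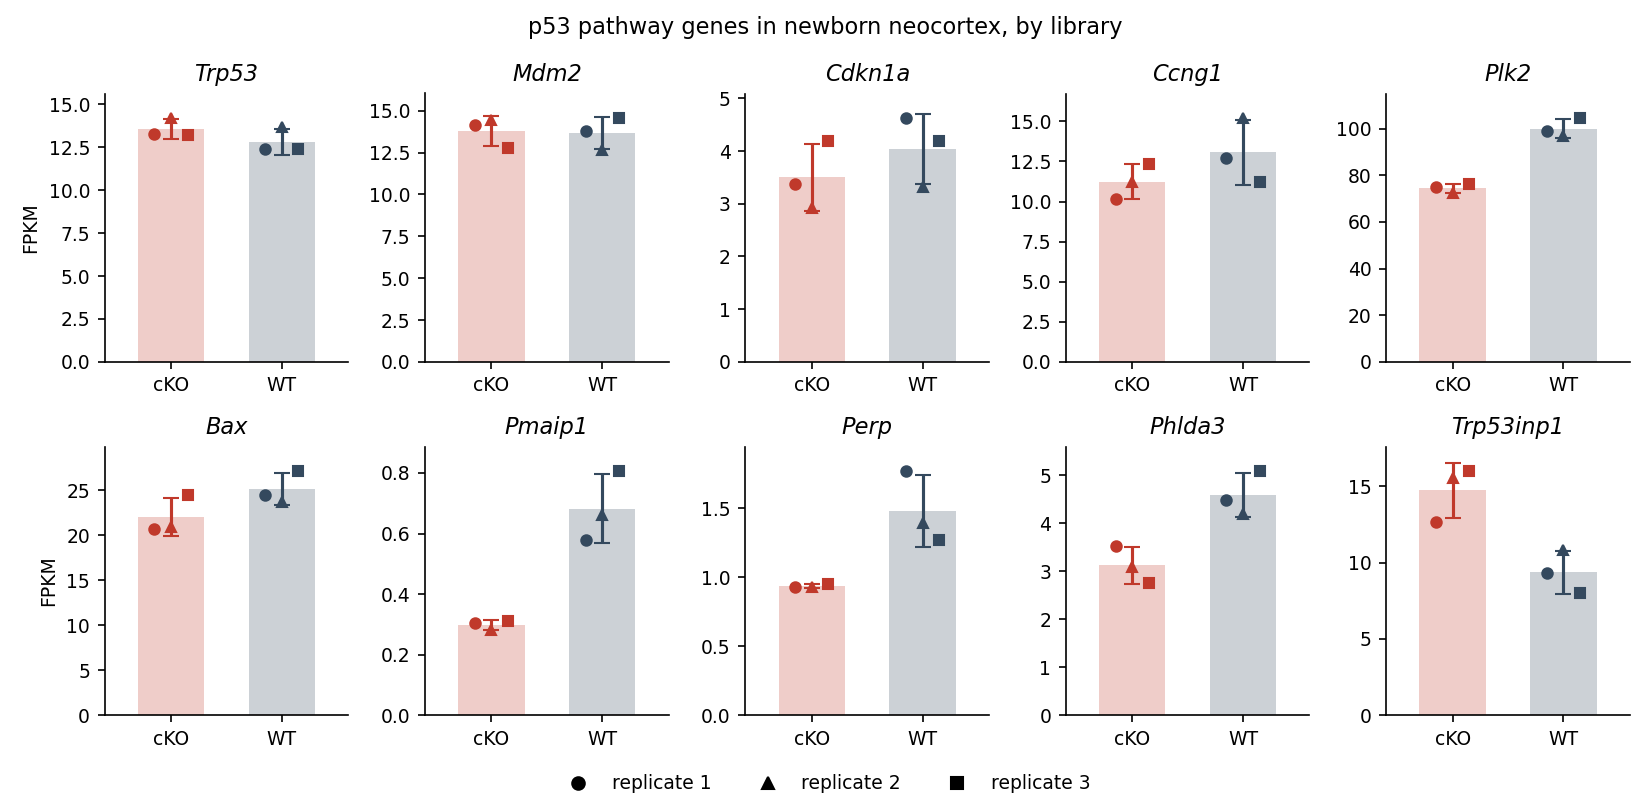
FPKM of each gene in each library, cKO left and WT right; bars are group means, error bars SD (n = 3 each), and symbols mark the replicate number. Plk2, Pmaip1, Perp, Phlda3 and Trp53inp1 show groups that do not overlap, while Trp53, Mdm2, Cdkn1a, Ccng1 and Bax overlap.

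Trp53 and Mdm2, the hub of the pathway, had close means in the 2 genotypes. Trp53 (ENSMUSG00000059552, chromosome 11, 69580359 to 69591873, plus strand, mm10) stood at 13.2, 14.2 and 13.2 FPKM in cKO and 12.4, 13.7 and 12.4 FPKM in WT. The groups overlapped, with cKO 2 the highest library and WT 1 the lowest. The log2 change was 0.07 (95% interval −0.079 to 0.23, limma adjusted p = 0.484). Mdm2 (ENSMUSG00000020184, chromosome 10, 117688875 to 117710758, minus strand) stood at 14.2, 14.4 and 12.8 FPKM in cKO and 13.8, 12.7 and 14.6 FPKM in WT. WT libraries were both the lowest and the highest of the 6. Its log2 change was 0.011 (95% interval −0.16 to 0.18, limma adjusted p = 0.935), and its sign turned in 4 of the 16 alternatives. The intervals bound the change of both transcripts and say nothing of the p53 protein, which is regulated mostly after translation.

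The cell cycle arm held 3 members, and only Plk2 passed. Cdkn1a (ENSMUSG00000023067, chromosome 17, 29090976 to 29100727, plus strand) encodes p21, an inhibitor of cyclin-dependent kinases and the classical p53 target. It stood at 3.38, 2.92 and 4.19 FPKM in cKO and 4.63, 3.31 and 4.18 FPKM in WT. The groups overlapped and spread widely, with a coefficient of variation of 18.3% in cKO and 16.5% in WT. Its log2 change was −0.17 (95% interval −0.45 to 0.12, limma adjusted p = 0.393). A tentative antisense gene model covers 7.68% of its exon bases. Ccng1 (ENSMUSG00000020326, chromosome 11, 40748552 to 40755311, minus strand), cyclin G1, a p53 target that acts back on Mdm2, stood at 10.1, 11.2 and 12.3 FPKM in cKO and 12.7, 15.2 and 11.2 FPKM in WT. The groups overlapped, through WT 3, and the log2 change was −0.20 (95% interval −0.43 to 0.042, limma adjusted p = 0.235).

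Plk2 (ENSMUSG00000021701, chromosome 13, 110395046 to 110400844, plus strand) encodes a polo-like kinase induced by stress, serum and neuronal activity, which in neurons weakens synapses after strong activity. It was the most abundant member, at percentile 97.7 of all genes by mean FPKM. It stood at 74.8, 72.4 and 76.3 FPKM in cKO and 98.8, 96.8 and 105 FPKM in WT. The groups lay far apart next to their spread, with coefficients of variation of 2.62% in cKO and 4.06% in WT. Plk2 averaged 74.5 ± 1.95 FPKM in cKO and 100.1 ± 4.07 FPKM in WT (SD, n = 3 each), which is −0.42 in log2 units (SE 0.0593, limma adjusted p = 0.00144). It had the smallest p of the 10 members.

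The death arm held 3 members, of which Pmaip1 and Perp fell. Pmaip1 (ENSMUSG00000024521, chromosome 18, 66458533 to 66465565, plus strand) encodes Noxa, a BH3-only protein that neutralises the survival protein Mcl-1. It stood at 0.303, 0.280 and 0.310 FPKM in cKO and 0.580, 0.660 and 0.806 FPKM in WT. Each WT library was above each cKO library. The level was low, with about 20, 19 and 20 reads in cKO and 41, 42 and 52 in WT. Its mean was 2.29-fold lower in cKO (limma adjusted p = 0.00628). The log2 change was −0.37 on the log2(FPKM + 1) scale, which understates low genes, and −1.13 (SE 0.268, adjusted p = 0.00946) with limma-voom on the recovered reads. Tcf4, the deleted gene, lies on the same chromosome, at 69343356 to 69689079. Whether the altered Tcf4 allele or the sequence around it bears on Pmaip1 was not tested.

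Perp (ENSMUSG00000019851, chromosome 10, 18845020 to 18857073, plus strand), a membrane protein of p53-driven death and of desmosomes, stood at 0.931, 0.927 and 0.950 FPKM in cKO and 1.77, 1.40 and 1.27 FPKM in WT. The cKO libraries were nearly equal and WT 1 was the highest. Perp averaged 0.936 ± 0.0123 FPKM in cKO and 1.48 ± 0.261 FPKM in WT (SD, n = 3 each), 1.58-fold lower in cKO (limma adjusted p = 0.0293). About 43 to 44 reads in cKO and 58 to 90 in WT lay behind it. This call was lost without cKO 1, cKO 2, cKO 3 or WT 1, with an adjusted p of 0.0853, 0.0858, 0.0647 and 0.0977.

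Bax (ENSMUSG00000003873, chromosome 7, 45461697 to 45466898, minus strand), the pore-forming protein that opens the mitochondrial membrane, stood at 20.7, 20.9 and 24.5 FPKM in cKO and 24.5, 23.8 and 27.2 FPKM in WT. The groups overlapped only because cKO 3 lay above WT 1 and WT 2. The log2 change was −0.18 (95% interval −0.37 to −0.00036) with an unadjusted p of 0.0496, and limma did not call it (adjusted p = 0.154). An adjoining gene model, Gm45808, covers 12.2% of its exon bases on the same strand.

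The last 2 members act on growth signals and autophagy and moved in opposite directions. Phlda3 (ENSMUSG00000041801, chromosome 1, 135766119 to 135769136, plus strand) encodes a pleckstrin-homology protein that competes with the kinase Akt for membrane lipids. It stood at 3.52, 3.09 and 2.77 FPKM in cKO and 4.48, 4.21 and 5.09 FPKM in WT. No cKO library reached the lowest WT library. Phlda3 averaged 3.13 ± 0.380 FPKM in cKO and 4.59 ± 0.452 FPKM in WT (SD, n = 3 each), 1.47-fold lower in cKO or −0.44 in log2 units (SE 0.0970, limma adjusted p = 0.0138).

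Trp53inp1 (ENSMUSG00000028211, chromosome 4, 11156431 to 11174379, plus strand) encodes a nuclear stress protein that promotes p53 phosphorylation and, in the cytoplasm, autophagy. It stood at 12.7, 15.6 and 16.0 FPKM in cKO and 9.29, 10.8 and 7.99 FPKM in WT. It was the only member whose cKO libraries all lay above the WT libraries. Its mean was 14.7 ± 1.82 FPKM in cKO and 9.37 ± 1.42 FPKM in WT (SD, n = 3 each), a rise of 0.60 in log2 units (SE 0.113, limma adjusted p = 0.00644).

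**Figure D2:**
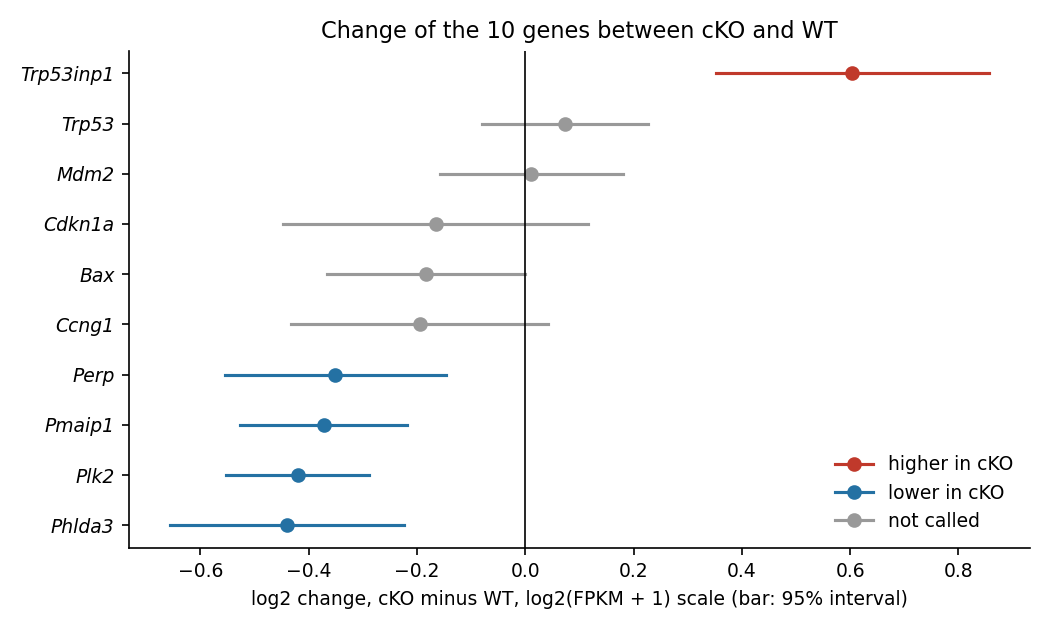
Log2 change of each gene, cKO minus WT, on the log2(FPKM + 1) scale with its 95% interval from limma. Trp53inp1 lies right of 0, at 0.60; Phlda3, Plk2, Pmaip1 and Perp lie between −0.44 and −0.35; the intervals of Trp53, Mdm2, Cdkn1a and Ccng1 cross 0 and that of Bax ends just short of it.

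Groups did not overlap in 5 of the 10 members, 4 with cKO below WT and 1 with cKO above, while 37.3% of all genes had groups that did not overlap. The order of levels was led by Plk2, then Bax, in both genotypes. Mdm2 and Trp53 followed, and their ranges overlapped in both. Trp53inp1 averaged above Mdm2, Trp53 and Ccng1 in cKO (14.7 FPKM, against 13.8, 13.6 and 11.2 FPKM) and below all 3 in WT (9.37 FPKM, against 13.7, 12.8 and 13.1 FPKM). Its cKO range overlapped those of Mdm2 and Trp53 and lay above that of Ccng1, whereas in WT it lay below all 3. Phlda3 and Cdkn1a overlapped in both genotypes, and Perp and Pmaip1 were lowest, with Pmaip1 at percentile 7.57 of all genes.

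Of the 5 called members, Plk2, Pmaip1, Phlda3 and Trp53inp1 were called without each library in turn. Adjusted p reached 0.0119 for Plk2, 0.0276 for Pmaip1, 0.0277 for Trp53inp1 and 0.0492 for Phlda3, each without cKO 2. Within the 4 female libraries, 2 per group, only Plk2 (adjusted p = 0.0242) and Pmaip1 (0.0315) passed limma's test. There Trp53inp1 had a log2 change of 0.54 (adjusted p = 0.0746), Phlda3 −0.39 (0.118) and Perp −0.27 (0.175). Males, with 1 library per group, allow no such value. With sex as a term in the fit, 1 member was called higher and 4 lower.

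**Figure D3:**
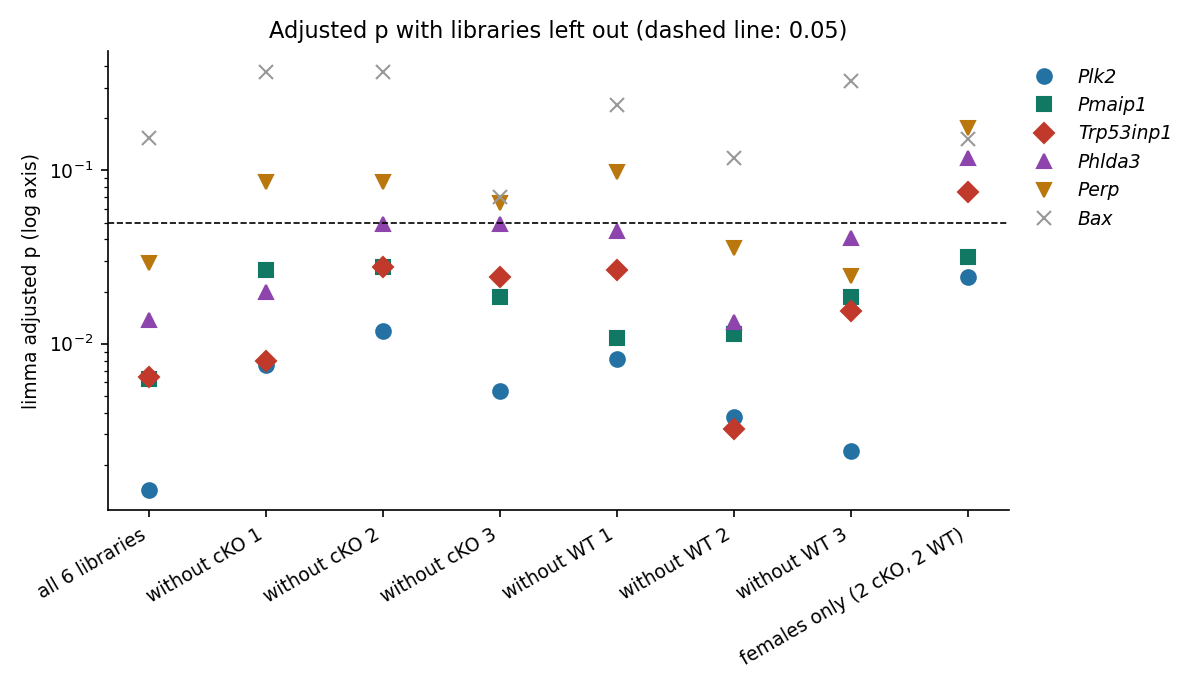
Limma adjusted p (log axis) of the 5 called genes and Bax with all 6 libraries, without each library in turn, and in females only; the dashed line marks 0.05. Perp lies above the line without cKO 1, cKO 2, cKO 3 or WT 1, and only Plk2 and Pmaip1 lie below it in females.

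Lists of related genes were examined next. Of 14 measured paralogs closest to the members, 4 fell (28.6%, against 8.59% of all genes), 1 rose and 9 did not pass. Trp53inp2, the autophagy paralog of Trp53inp1, averaged 22.4 ± 0.414 FPKM in cKO and 28.1 ± 0.934 FPKM in WT (limma adjusted p = 0.00702), so it fell while Trp53inp1 rose. Phlda1 fell to 1.78 ± 0.479 FPKM in cKO, against 3.16 ± 0.428 FPKM in WT, and Plk3 to 2.75 ± 0.464 FPKM in cKO, against 4.07 ± 0.489 FPKM in WT. An antisense long non-coding RNA covers 33.0% of the exon bases of Phlda1. Bok, a Bax-like effector, fell 1.21-fold. Mdm4, the Mdm2 partner that masks p53, rose to 16.4 ± 1.28 FPKM in cKO, against 13.2 ± 0.889 FPKM in WT. Phlda1 lost its call without WT 1, Plk3 and Mdm4 without 4 libraries each and Bok without any of the 6, with adjusted p of up to 0.0611, 0.104, 0.119 and 0.178. The median log2 change of the list was −0.079. Without WT 1, cKO 2, cKO 3 or WT 3, the list held 1, 2, 2 and 2 genes called lower, and without WT 2 it held 2 called higher.

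Among 19 measured kinases, ligases and other proteins that act on p53, 2 rose (10.5%), 1 fell (5.26%) and 16 did not pass, shares near those of all genes. Hipk2, a kinase known in human cells to phosphorylate p53 in the death response, averaged 9.83 ± 0.815 FPKM in cKO and 6.54 ± 1.503 FPKM in WT (limma adjusted p = 0.0215), a call lost without cKO 2, cKO 3 or WT 1 (adjusted p of up to 0.0731). Mdm4 was the other gene that rose, and without cKO 2 or WT 1 neither passed. Dyrk2, known in human cells to phosphorylate the same site, fell to 20.3 ± 0.554 FPKM in cKO, against 26.1 ± 1.48 FPKM in WT (limma adjusted p = 0.0064). In the list of p53 family and binding partners, Trp53bp2 rose to 14.4 ± 0.419 FPKM in cKO, against 10.8 ± 1.12 FPKM in WT (limma adjusted p = 0.00998), Trp53inp2 fell and 10 of 12 did not pass. Each direction held 8.33% of that list, against 7.22% of all genes called higher and 8.59% called lower. Without WT 2, 3 genes of that list were called higher. In females alone Trp53bp2, Trp53inp2, Dyrk2 and Hipk2 did not pass (adjusted p = 0.0787, 0.0910, 0.109 and 0.128).

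Among 41 other p53 target genes measured, 1 rose (2.44%, against 7.22% of all genes), 4 fell (9.76%, against 8.59%) and 36 did not pass. The median log2 change of the list was 0.0098. Bcl6, a transcriptional repressor also known for driving cortical neurogenesis, fell 2.83-fold, to 1.47 ± 0.127 FPKM in cKO, against 4.16 ± 0.626 FPKM in WT (limma adjusted p = 0.000166). Gadd45a, a stress sensor that activates p38 signalling, fell to 0.694 ± 0.0562 FPKM in cKO, against 1.18 ± 0.234 FPKM in WT, although an antisense transcript covers 19.1% of its exon bases. Pmm1 and Ephx1, both metabolic enzymes, fell 1.18-fold and 1.41-fold, and the mitotic spindle gene Psrc1 rose 1.47-fold. Gadd45a and Pmm1 lost their calls without 4 libraries each, Ephx1 and Psrc1 without 5 each (adjusted p of up to 0.0804, 0.0928, 0.165 and 0.112). Without WT 1, cKO 1 or cKO 2, 1 gene of the list was called lower, 2 were without WT 3 or cKO 3, and without WT 2, 5 were called higher.

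In the list of BCL-2 family, caspases and the apoptosome, 1 of 25 rose (4%), 2 fell (8%) and 22 did not pass. Over all genes, 7.22% were called higher and 8.59% lower, so neither share of this list was above that of all genes. Bcl2, the survival protein, rose to 4.28 ± 0.278 FPKM in cKO, against 3.001 ± 0.256 FPKM in WT (limma adjusted p = 0.0123). Bcl2l11, which encodes the BH3-only death protein Bim, fell 1.78-fold, to 1.23 ± 0.0480 FPKM in cKO, against 2.20 ± 0.394 FPKM in WT (limma adjusted p = 0.0093). Bok, named above, was the other gene that fell. Bcl2 lost its call without cKO 2 (adjusted p = 0.0568). Without WT 1, WT 3 or any cKO library, 1 gene of the list was called lower, and without WT 2, 2 were called higher. In females alone Bcl2l11 and Bcl2 did not pass (adjusted p = 0.0774 and 0.0826).

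Of 35 stress-activated MAP kinases, their activators and regulators, 3 rose (8.57%, against 7.22% of all genes), 2 fell (5.71%, against 8.59%) and 30 did not pass. The median log2 change of the list was 0.10. Jun, the transcription factor that the JNK kinases phosphorylate, rose to 16.7 ± 1.09 FPKM in cKO, against 11.4 ± 1.85 FPKM in WT (limma adjusted p = 0.00982). Map2k4, a kinase that activates JNK and p38, rose to 30.2 ± 1.13 FPKM in cKO, against 24.5 ± 2.06 FPKM in WT, and Map3k4 rose 1.23-fold. Dusp10, a phosphatase of both kinases, fell 1.81-fold and Gadd45a fell. Map2k4 and Dusp10 lost their calls without 3 libraries each and Map3k4 without 5, with adjusted p of up to 0.0915, 0.0769 and 0.115. Without cKO 2, cKO 3 or WT 1, 1 gene of the list was called higher, and without WT 2, 5 were. Dusp10 and Gadd45a both lost their calls without WT 1 or cKO 1.

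Plk2 and Plk3 are also induced by neuronal activity. Of 13 activity-regulated early genes measured, a list that itself holds Plk3, 7 fell (53.8%, against 8.59% of all genes), 1 rose and 5 did not pass. Arc, a synaptic immediate early gene, fell to 0.152 ± 0.0215 FPKM in cKO, against 0.591 ± 0.154 FPKM in WT (limma adjusted p = 0.00347). At this low level its log2 change depended on the method. It was −0.46 in the main fit and −1.90 (SE 0.330, adjusted p = 0.00112) with limma-voom. Fosl2 fell to 9.22 ± 2.19 FPKM in cKO, against 16.7 ± 1.65 FPKM in WT, and Egr3 to 0.588 ± 0.137 FPKM in cKO, against 1.63 ± 0.471 FPKM in WT. Jun was the gene that rose. Egr1, Nr4a1, Ier2 and Plk3 also fell, and lost their calls without 2, 4, 5 and 4 libraries. Their limma adjusted p reached 0.0568, 0.117, 0.154 and 0.104. Without WT 1, cKO 2 or WT 3, 3, 3 and 4 genes of this list were called lower. Among the genes named so far from these lists, Phlda1, Bcl6, Jun, Arc, Fosl2 and Egr3 passed in females alone and the others did not. The part of these genes in the change of Plk2 was not tested.

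**Figure D4:**
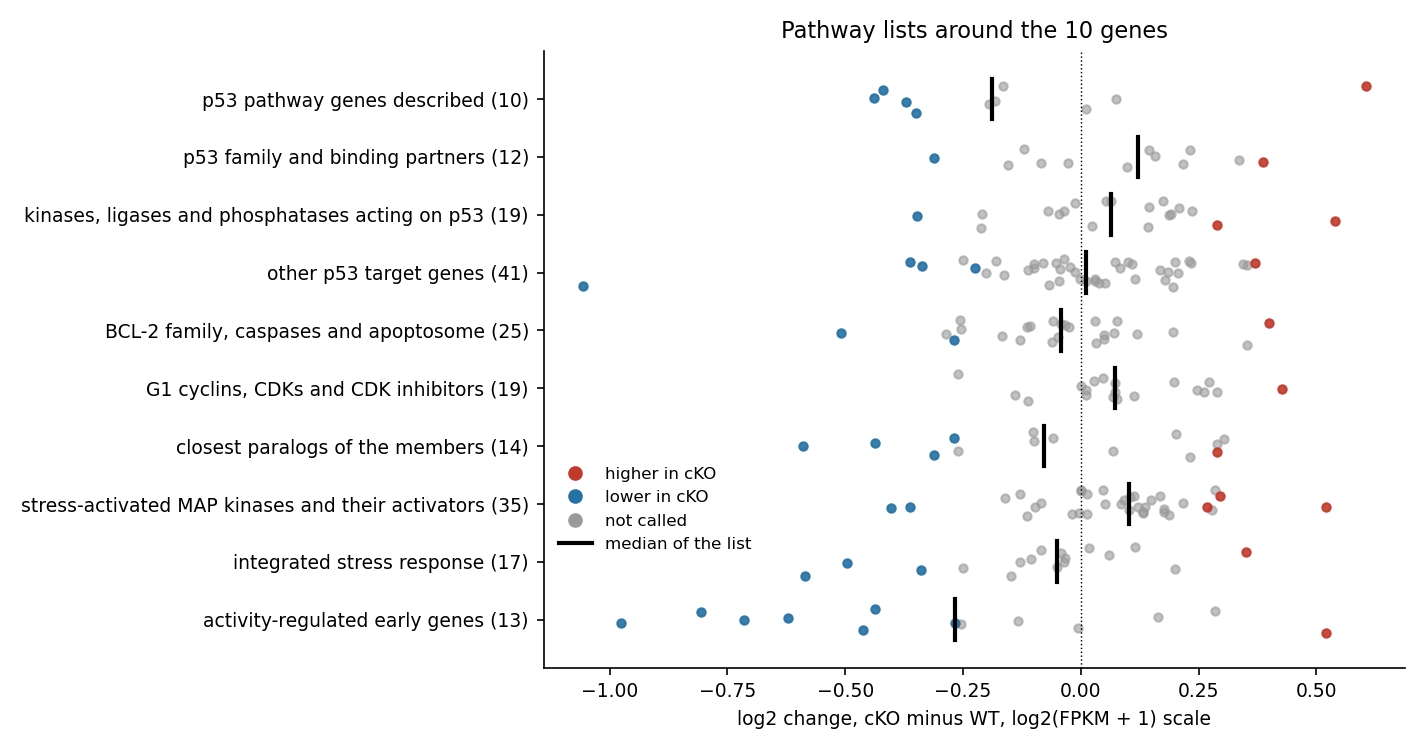
Log2 change, cKO minus WT, of each measured gene (points; number of genes in brackets) of the 10 described genes and 9 related lists; black bars are list medians. The medians run from −0.27 for the activity-regulated genes to 0.12 for the p53 family, with −0.19 for the described genes.

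Markers of several cell types moved with genotype. The counts come from lists of 5 to 17 genes. Over all genes, 8.59% were called lower and 7.22% higher. Astrocyte and radial glia markers fell in 6 of 8 measured genes, and the list summed to 321 to 422 FPKM in cKO and 546 to 578 FPKM in WT. Microglia markers fell in 4 of 9, with sums of 15.5 to 23.6 FPKM in cKO and 26.8 to 31.8 FPKM in WT. Without WT 1, 1 microglia marker was called lower, and without WT 3 or cKO 1, 2 were. Interneuron markers fell in 4 of 10, with sums of 202 to 219 FPKM in cKO and 205 to 230 FPKM in WT. Without WT 1, cKO 1 or cKO 2, 1 interneuron marker was called lower, and without WT 3, 2 were. Oligodendrocyte lineage markers fell in 2 of 7, Olig1 and Pdgfra, with sums of 47.7 to 55.7 FPKM in cKO and 62.6 to 71.2 FPKM in WT. Without cKO 1 or WT 1, 1 gene of the list was called lower, and without WT 3, 3 were. Of 5 thalamus markers Prkcd fell, by 1.65-fold, and the list summed to 12.4 to 14.1 FPKM in cKO and 15.6 to 16.9 FPKM in WT. Of 5 red blood cell genes Hbb-bs fell, with sums of 68.0 to 85.7 FPKM in cKO and 86.3 to 90.7 FPKM in WT. Without cKO 1, cKO 3 or WT 1, 0 of these genes were called, and reads of Hbb-bs may be shared with its near-identical copy Hbb-bt. None of 8 endothelial markers passed limma's test (lowest adjusted p = 0.0844, with 2 at an unadjusted p under 0.05 and 0 called by limma-voom), and their sums were 35.5 to 39.9 FPKM in cKO and 36.8 to 43.7 FPKM in WT. Without WT 2, 2 of them were called higher. None of 6 markers of mural cells and meninges passed limma's test (1 at an unadjusted p under 0.05 and 0 called by limma-voom), with sums of 27.0 to 28.6 FPKM in cKO and 29.5 to 33.5 FPKM in WT. Dividing-cell markers rose in 5 of 17, among them Mki67 and Top2a, with sums of 105 to 130 FPKM in cKO and 100.005 to 108 FPKM in WT. All 5 lost their calls without WT 1, cKO 2 or cKO 3, and without WT 3 and cKO 1 the list held 1 and 8 genes called higher. No marker in these lists was at 0 in any library. The part of these cell types in the changes of Plk2, Pmaip1, Phlda3, Perp and Trp53inp1 was not tested.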

How the data were processed

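RNA of 6 neocortices was sequenced after Trizol extraction with a TruSeq RNA kit, per the labels. The deposited values are FPKM, as named per the file headers and computed by the authors. STAR 2.5.4b aligned reads to mm10 and featureCounts 1.6.1 counted them, with bcl2fastq 1.8.4, R 3.4.1 and DESeq2 1.22.1 also used, per the submitters' processing notes. The sources used here do not name the annotation release, strand setting or filter. Blank lines (139) were left out.

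Limma 3.58.1 in R 4.3.3, with trend and robust moderation, compared 3 cKO with 3 WT libraries on log2(FPKM + 1) by genotype alone. Fits were checked on simulated data. Positions and exon lengths came from GENCODE M21 (15661 genes matched). Reads were recovered as FPKM times exon length times a library size at which 94.8% to 96.0% of 1292 to 1506 low values per library lay within 0.1 of a whole read. They are approximate, and served for depth and limma-voom. Their number limits low genes, and intervals come from limma.

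The members and lists were chosen with earlier results of these data known. Named genes are the members, Tcf4, up to 4 called genes of smallest p per list and the 3 genes most like Plk2 and Trp53; those most like Trp53 are not reported here. Ephx1, Map3k4, Egr1, Nr4a1 and Ier2, as further called genes of a list, and single markers were named after their values were seen. Listed genes that are not among the measured ones were not analysed here. Alternatives were other pseudocounts (0.5 and 0.1), a filter at 1 FPKM, other scalings, plain moderation, voom, a replicate block and leaving out each library. The fits with sex as a term and in females only were added after seeing the data.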

Additional observations from a re-analysis of the deposited data

How the results depend on the processing

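Over the 16 alternatives to the fit, 1 member was called higher and 3 or 4 lower in all but the fit in females only, which called 0 higher and 2 lower. Without each library in turn, 1 member was called higher and 3 to 4 lower. The filter at 1 FPKM left Pmaip1 out of the test and called 3 lower. Among the genes named from lists, the filter also left out Arc, Gadd45a and Dusp10. Over all genes, leaving out 1 library gave 544 to 1572 genes called higher and 830 to 1517 lower, with 1134 and 1349 in the full fit, and females only gave 369 and 624, with fewer libraries. Mdm2 changed sign with quantile normalisation (−0.0008) and without cKO 1 (−0.0084), cKO 2 (−0.020) or WT 2 (−0.039), with 0.062 without cKO 3 as the highest value with a library left out, and was never called. The cause was not tested. Of 159 refits of members, 148 kept direction and call, 7 lost the call and 4 were those of Mdm2. Same-numbered cKO and WT libraries did not deviate together (correlations across genes of −0.043, 0.109 and −0.038 for numbers 1, 2 and 3), and cKO 1 and cKO 3 correlated best with another number. With the replicate number as a block, 1 member was called higher and 4 lower, and 1274 genes were called higher and 1541 lower. Limma-voom called 1508 and 1437. Depth limits Pmaip1 and Perp most.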

Other observations

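Of 17 measured genes of the integrated stress response, which slows translation under amino acid or protein stress, 3 fell (17.6%, against 8.59% of all genes), 1 rose and 13 did not pass. Ppp1r15a, the stress-induced phosphatase subunit that restores translation, fell to 2.91 ± 0.316 FPKM in cKO, against 4.86 ± 0.481 FPKM in WT (limma adjusted p = 0.00321). Asns, asparagine synthetase, fell 1.28-fold, and Chac1, which degrades glutathione, fell 1.96-fold. Cebpg, a partner of Atf4, rose to 9.82 ± 0.249 FPKM in cKO, against 7.48 ± 0.307 FPKM in WT, and did not pass in females alone (adjusted p = 0.0833). Asns lost its call without cKO 1 or cKO 2 and Chac1 without 5 libraries (adjusted p of up to 0.0788 and 0.138). In females alone Asns (limma adjusted p = 0.0423) and Ppp1r15a (0.0491) passed and Chac1 (0.179) did not. Without cKO 1 or cKO 2, 1 gene of the list was called lower. Of 19 G1 cyclins, kinases and inhibitors, 1 rose (5.26%, against 7.22% of all genes), 0 fell (against 8.59%) and 18 did not pass. Cdk6 rose to 4.38 ± 0.732 FPKM in cKO, against 2.97 ± 0.0879 FPKM in WT (limma adjusted p = 0.023). Its call was lost without cKO 2, cKO 3, WT 1 or WT 3 (adjusted p of up to 0.0885), and without WT 2, 4 genes of the list were called higher.

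The genes most like Plk2 over the 6 libraries were Acot9, Ank and Arpc5, with a root mean square difference of centred log2(FPKM + 1) of 0.030, 0.0328 and 0.0344 among 11761 genes compared. Arpc5, a subunit of the actin-nucleating Arp2/3 complex, stood at 71.2, 73.6 and 78.3 FPKM in cKO and 99.4, 96.7 and 106 FPKM in WT.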
